A study of Danio rerio with 12 samples.

Results

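The genes described here are the Wnt ligands, their receptors and their modulators, chosen by gene symbol alone: Wnt ligands, Frizzled receptors, the co-receptors Lrp5, Lrp6, Ror1 and Ror2, R-spondins, the secreted antagonists of the Dkk and Sfrp families with *frzb*, Axin, Dishevelled and Vangl proteins, and the nuclear factors Lef1 and Tcf7 to Tcf7l2. The rule itself uses no expression value, although the members were chosen with earlier results of these data known. The rule found 64 genes among the 21570 of the loss-of-function table and 64 among the 21119 of the gain-of-function table, of which 61 were in both tables and 67 in either. Of these, 57 and 55 reached a mean of 5 normalized read counts, the minimum for testing, in the loss-of-function and gain-of-function tables, against 17877 and 16510 genes overall.

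RNA sequencing had been carried out on cardiomyocytes sorted by a *myl7*-driven fluorescent reporter from zebrafish embryos at 20 h post-fertilization, with 3 libraries in each of 4 groups and 12 in all. The hand2 FLD-/- group was homozygous for a CRISPR–Cas9 deletion spanning the *hand2* locus, carried as a single mutant line, and was set against hand2 FLD+/? siblings, which were wild type or heterozygous and therefore not a pure wild-type group. The hand2 OE group carried *Tg(myl7:hand2-p2a-EGFP)*, in which the cardiomyocyte promoter of *myl7* drives additional *hand2* on top of the endogenous gene, and was set against WT siblings. The reporter was *Tg(myl7:EGFP)* for the mutant experiment, and the study names it as EGFP in one place and mCherry in another for the overexpression experiment. The sort selects cells with an active *myl7* promoter in all 4 groups; its purity was not tested, and markers of other cell types in these libraries are given beside the results. The study describes the replicates as biologically independent samples; how many embryos went into each library was not given in the sources used here. The experiments had separate controls and were normalized separately, so that levels are compared only within an experiment.

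Wnt ligands are secreted lipid-modified proteins that bind Frizzled receptors. In the canonical branch, Frizzled and the co-receptors Lrp5 or Lrp6 recruit Dishevelled and Axin, β-catenin escapes destruction, and it acts with Lef1 and the Tcf7 family in the nucleus. R-spondins keep Frizzled and Lrp at the cell surface, some Dkk proteins such as Dkk1 block Lrp5 and Lrp6, and Sfrp proteins bind Wnt ligands outside the cell. All Dkk genes are grouped here as secreted antagonists by their symbol, whatever the action of the single protein. In the non-canonical branch, Wnt5 and Wnt11 act through Frizzled, Ror and Vangl on cell polarity and movement. In the vertebrate heart field, canonical signaling generally restrains cardiac differentiation at the stages after gastrulation, whereas Wnt11-type signaling accompanies it.

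*hand2* was first examined in every library as a check of the labels. It had 149, 427 and 45 normalized counts in hand2 FLD-/- cardiomyocytes, against 2228, 2336 and 2380 in hand2 FLD+/? cardiomyocytes, a log2 difference of −4.01 ± 0.62 (standard error; limma, adjusted p = 0.00124). In hand2 OE cardiomyocytes it had 2159, 1939 and 2102 normalized counts, against 1671, 1667 and 1611 in WT cardiomyocytes, which is 1.25-fold higher (log2 difference 0.32 ± 0.05, adjusted p = 0.00837). Loss of *hand2* counts was thus large and uneven among the mutant libraries, with the most left in replicate 2, and the gain in hand2 OE was small. Among genes spanning more than 500 bp, none held more than 1.52 normalized counts per base of its span in the loss-of-function table or more than 1.64 in the gain-of-function table, and *hand2* had a mean of 0.996 in the gain-of-function table. Whether there was a limit on density, and whether it shortened the measured differences of dense genes, was not tested.

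A gene was called when its adjusted p was 0.05 or below and its fold change was 1.5 or more, with limma fitted on log2(value + 1) across all tested genes. In hand2 FLD-/- cardiomyocytes, 9 of the 57 tested Wnt genes rose and 6 fell, against backgrounds of 9.09% of all tested genes rising and 9.43% falling. In hand2 OE cardiomyocytes, 3 of the 55 tested Wnt genes rose and 4 fell, against 2.53% rising and 1.57% falling among all genes. In total 17 Wnt genes were called in at least 1 experiment. The Wnt genes had no common direction: their median log2 fold change was −0.06 in the mutant and 0.11 in the overexpression experiment, against 0.003 and 0.001 over all tested genes. By the adjusted p alone, 22 of 57 passed in the mutant (all genes 29.6%), 12 of them higher (all genes 14.8%) and 10 lower (all genes 14.8%). In hand2 OE 11 of 55 passed on the adjusted p alone (all genes 6.63%), 5 higher (all genes 3.45%) and 6 lower (all genes 3.18%). The libraries of hand2 FLD-/- and hand2 FLD+/? did not overlap for 28 of the 57 genes (all genes 44.3%), and those of hand2 OE and WT did not overlap for 23 of the 55 (all genes 26.1%). In bulk samples such as these, fewer cells of a type and less RNA per cell cannot be told apart.

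**Figure D1:**
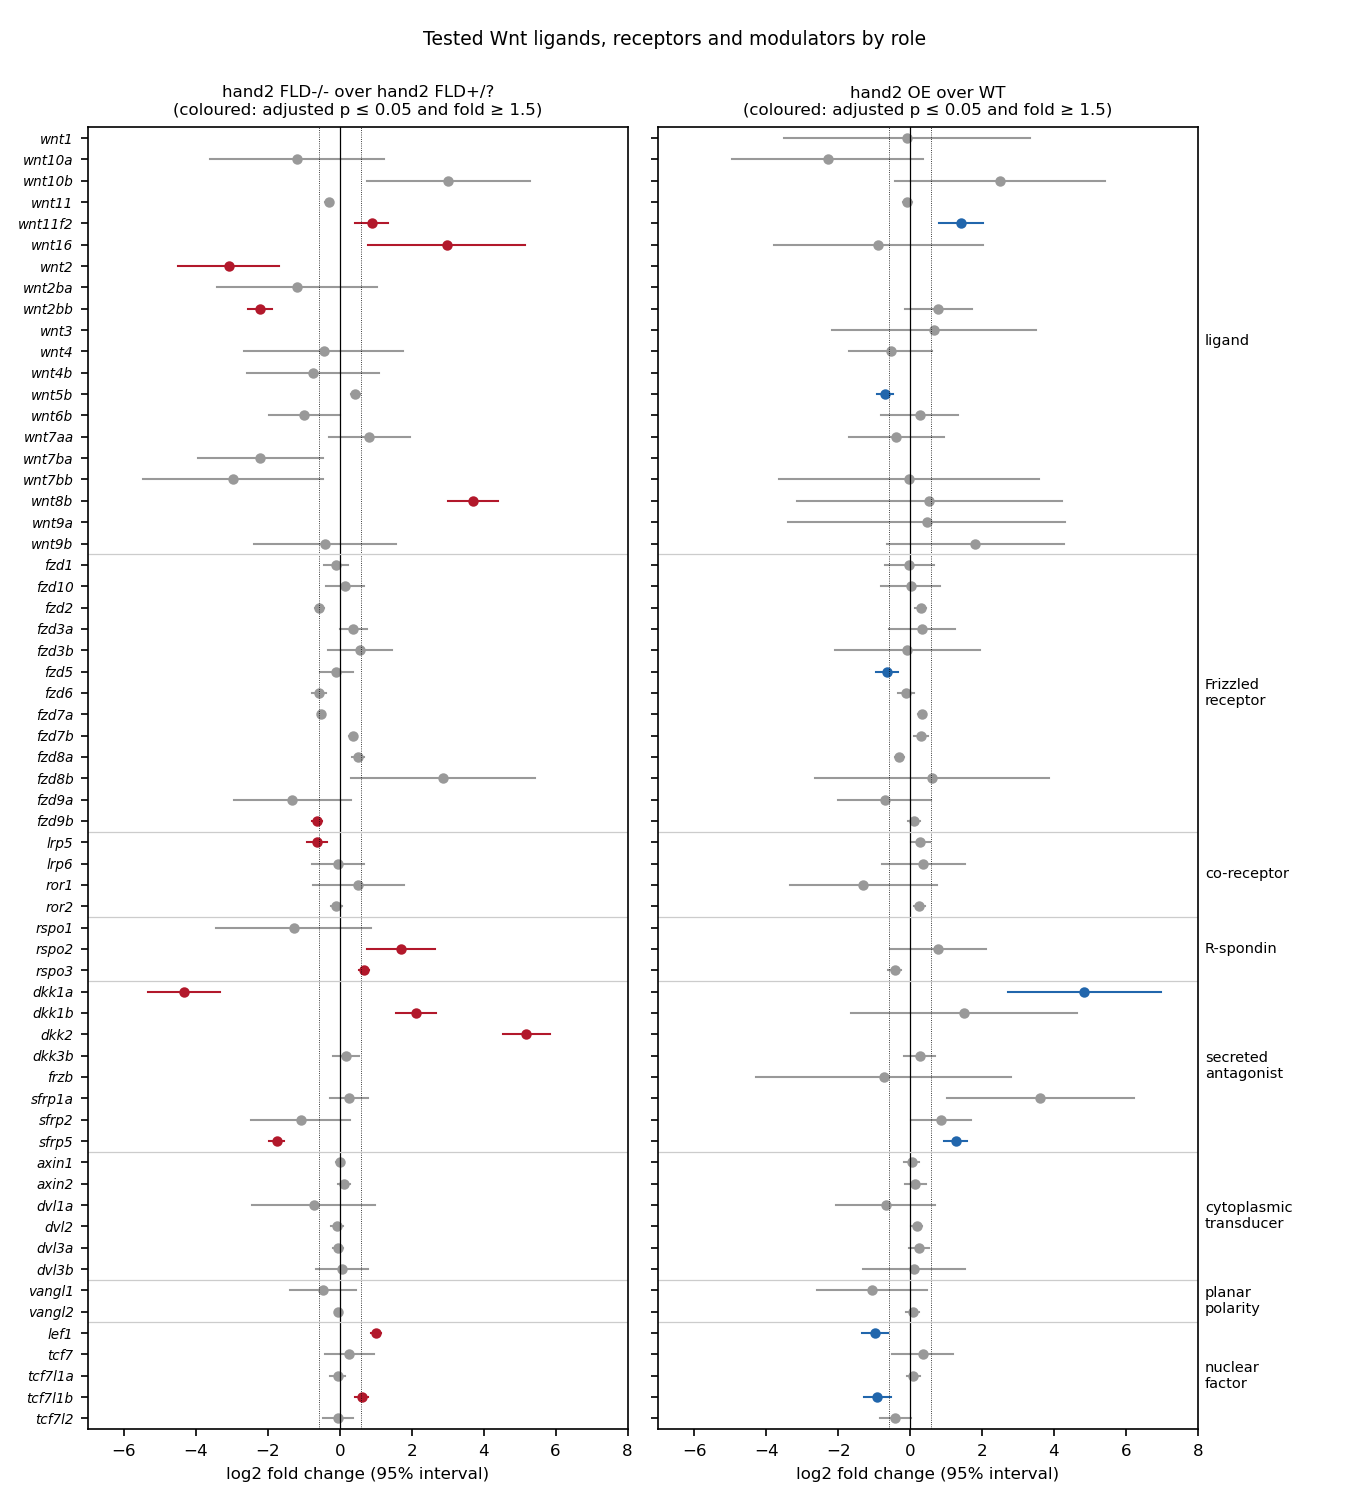
Log2 fold change (x axis) of every tested Wnt gene (y axis, grouped by role) in hand2 FLD-/- over hand2 FLD+/? (left) and hand2 OE over WT (right), with bars for the 95% confidence interval, dotted lines at a fold change of 1.5, and colour for called genes; an empty row was not tested in that experiment. The 15 and 7 called genes lie on both sides of 0. No Axin or Dishevelled gene (the cytoplasmic group here) and no Vangl gene (the planar polarity group here) is among them.

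The secreted antagonists held the largest log2 difference in each direction among the Wnt genes tested in the mutant, and the largest in hand2 OE. In hand2 FLD-/- cardiomyocytes, 2 of the 7 tested antagonists rose and 2 fell (all genes 9.09% and 9.43%). In hand2 OE cardiomyocytes 2 of 7 rose and 0 fell (all genes 2.53% and 1.57%, limma), with 0 lower at an unadjusted p under 0.05 as well. *sfrp5* (chr13:39911551-39947335, danRer11), which encodes a secreted Frizzled-related protein, had 420, 557 and 483 normalized counts in hand2 FLD-/- libraries, against 1597, 1660 and 1647 in hand2 FLD+/? libraries. The groups were far apart, and *sfrp5* fell by 1.76 on the log2 scale (± 0.10, adjusted p = 2.80e-06), 3.36-fold lower in the mutant. With overexpression, *sfrp5* had 699, 736 and 667 normalized counts in hand2 OE libraries, against 250, 359 and 271 in WT libraries, a rise of 1.27 ± 0.14 (adjusted p = 0.00164). *sfrp5* was the only Wnt gene called in both experiments under each of the processing alternatives tried and without each library in turn.

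*dkk1a* (chr13:41022502-41026398), a secreted inhibitor of Lrp5 and Lrp6, moved in the same directions as *sfrp5*. It had 21, 61 and 14 normalized counts in hand2 FLD-/- libraries, against 500, 568 and 581 in hand2 FLD+/? libraries, and fell by 4.33 on the log2 scale (± 0.44, adjusted p = 1.08e-04). The mutant library with the most *dkk1a*, replicate 2, was also the one with the most *hand2*. This match was seen after the values were known, and whether the levels are linked was not tested. Overexpression gave *dkk1a* 30, 68 and 55 normalized counts in hand2 OE libraries, against 4, 0 and 0 in WT libraries, so that the groups did not overlap although the WT level was near 0. The fitted log2 difference of 4.85 ± 0.93 (95% interval 2.73 to 6.97, adjusted p = 0.0184) depended on the value added before taking logs, with 3.14 when 5 was added and 5.55 when 0.5 was added. The call in hand2 OE was lost without hand2 OE replicate 2 (adjusted p = 0.0849) and without hand2 OE replicate 3 (also adjusted p = 0.0849).

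Its paralog *dkk1b* (chr12:6465557-6467675), the classical head inducer and canonical antagonist of the early embryo, went the other way in the mutant. It had 218, 364 and 374 normalized counts in hand2 FLD-/- libraries, against 73, 57 and 84 in hand2 FLD+/? libraries, a rise of 2.12 ± 0.25 (adjusted p = 2.37e-04). Within each library, the log2 ratio of *dkk1a* to *dkk1b* therefore lay between −4.64 and −2.56 in hand2 FLD-/- and between 2.76 and 3.29 in hand2 FLD+/?, with the order of the paralogs exchanged. That difference in ratio had an exact two-sided permutation p of 0.1, the smallest that 3 against 3 libraries allow (0.314 after adjustment over 22 paralog ratios). In hand2 OE libraries *dkk1b* had 3, 16 and 3 normalized counts, against 11, 0 and 0 in WT libraries, and was not called (adjusted p = 0.604).

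*dkk2* (chr1:50392716-50438247), another Dkk protein that binds Lrp co-receptors, had the largest log2 difference of the tested Wnt genes in the mutant. It had 492, 602 and 577 normalized counts in hand2 FLD-/- libraries, against 9, 18 and 18 in hand2 FLD+/? libraries, a rise of 5.18 ± 0.29 (adjusted p = 3.34e-06). It was near absent in the gain-of-function experiment, at 0, 9 and 0 in hand2 OE and 5, 0 and 11 in WT, and was not tested there. The remaining tested antagonists in the mutant, *dkk3b*, *sfrp1a* and *sfrp2*, had adjusted p-values of 0.485, 0.475 and 0.217. *sfrp1a* had 54, 63 and 48 normalized counts in hand2 OE libraries, against 2, 0 and 30 in WT libraries, and although the groups did not overlap its adjusted p was 0.105.

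Among the ligands, 3 of 17 tested rose and 2 fell in hand2 FLD-/- cardiomyocytes (all genes 9.09% and 9.43%). In hand2 OE cardiomyocytes, 1 of 16 rose and 1 fell (all genes 2.53% and 1.57%). The ligands that fell in the mutant were of the Wnt2 family. *wnt2bb* (chr8:27743550-27768785), which in zebrafish is known as the *prometheus* gene required for timely liver specification from the lateral plate, had 72, 80 and 76 normalized counts in hand2 FLD-/- libraries, against 343, 336 and 392 in hand2 FLD+/? libraries. It fell by 2.21 on the log2 scale (± 0.15, adjusted p = 8.93e-06). *wnt2* (chr18:20613241-20636549), a canonical ligand, had 5, 5 and 21 in hand2 FLD-/- libraries, against 132, 77 and 46 in hand2 FLD+/? libraries, and fell by 3.09 (± 0.62, adjusted p = 0.00510). The third family member, *wnt2ba*, had 0, 5 and 10 in hand2 FLD-/- and 5, 9 and 12 in hand2 FLD+/?, too few to tell a difference (limma, adjusted p = 0.406). In the gain-of-function experiment *wnt2bb* had 63, 55 and 43 normalized counts in hand2 OE libraries, against 23, 32 and 38 in WT libraries. These groups did not overlap, but the difference did not pass (log2 difference 0.78, adjusted p = 0.324), and *wnt2* was below the minimum with 0, 9 and 11 in hand2 OE and 0 in all WT libraries.

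The ligands that rose in the mutant were *wnt8b*, *wnt16* and *wnt11f2*. *wnt8b* (chr13:29991090-30006260), a canonical ligand best known from the developing forebrain, had 179, 159 and 150 normalized counts in hand2 FLD-/- libraries, against 9, 14 and 12 in hand2 FLD+/? libraries, a rise of 3.71 ± 0.31 (adjusted p = 3.19e-05). *wnt16* (chr4:10706755-10713584), known in zebrafish for its part in the somites upstream of hematopoietic stem cells, had 33, 59 and 27 in hand2 FLD-/- libraries, against 16, 6 and 0 in hand2 FLD+/? libraries. Its rise of 2.97 ± 0.96 only just passed (adjusted p = 0.0453), and the call was lost when any library other than hand2 FLD+/? replicate 1 was left out (adjusted p 0.0525 to 0.137). Both genes had at most 29 normalized counts in every hand2 OE and WT library, and neither passed there (adjusted p = 0.900 for *wnt8b* and 0.763 for *wnt16*).

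*wnt11f2* (chr5:36513605-36520117), the *silberblick* gene of zebrafish whose product drives convergent extension through the non-canonical branch, was the only Wnt gene that rose in both experiments. It had 553, 555 and 547 normalized counts in hand2 FLD-/- libraries, against 307, 210 and 410 in hand2 FLD+/? libraries, a rise of 0.89 ± 0.20 (adjusted p = 0.00981). The mutant libraries were tight and the sibling libraries spread, with no overlap. The gain-of-function table listed it at 171, 153 and 174 in hand2 OE libraries, against 73, 45 and 71 in WT libraries, a rise of 1.41 ± 0.27 (adjusted p = 0.0170). The call in hand2 OE was lost without hand2 OE replicate 1, 2 or 3 (adjusted p 0.0548, 0.0541 and 0.0660), while the log2 difference stayed between 1.19 and 1.53 over all 6 libraries left out in turn.

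The other Wnt11 gene, *wnt11* (chr10:32104305-32123204), formerly named *wnt11r* and known for a part in heart and muscle development, did not follow *wnt11f2*. It had 1374, 1471 and 1453 normalized counts in hand2 FLD-/- libraries, against 1734, 1729 and 1811 in hand2 FLD+/? libraries. The groups did not overlap and the mutant was lower (log2 difference −0.30 ± 0.05, adjusted p = 0.00129), but by less than 1.5-fold. In hand2 OE libraries it had 2029, 1746 and 1953, against 2063, 1989 and 1958 in WT libraries, which overlapped (log2 difference −0.07, 95% interval −0.21 to 0.06, adjusted p = 0.558). The log2 ratio of *wnt11* to *wnt11f2* was 1.31 to 1.41 in hand2 FLD-/- against 2.14 to 3.04 in hand2 FLD+/?, and 3.48 to 3.56 in hand2 OE against 4.77 to 5.43 in WT. Each of these ratios was lower in the manipulated group without overlap (exact permutation p = 0.1 each, 0.314 after adjustment).

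*wnt5b* (chr4:8532580-8663117), the *pipetail* gene and a further non-canonical ligand, differed in opposite directions in the 2 experiments. It had 1232, 1168 and 1232 normalized counts in hand2 FLD-/- libraries, against 909, 923 and 860 in hand2 FLD+/? libraries, higher without overlap (0.43 ± 0.06, adjusted p = 4.20e-04) but by less than 1.5-fold. In hand2 OE libraries it had 634, 535 and 511, against 955, 908 and 862 in WT libraries, and fell by 0.70 on the log2 scale (± 0.10, adjusted p = 0.00466). This call held without each library in turn (adjusted p 0.00449 to 0.0255). The other ligands were low: of the 22 ligands in the loss-of-function table, 5 were below the minimum, and of the 21 in the gain-of-function table another 5 were. Of the low ligands that were tested in the mutant, 3 were without overlap and above an adjusted p of 0.05. *wnt10b* had 11, 20 and 20 normalized counts in hand2 FLD-/- libraries, against 0, 9 and 0 in hand2 FLD+/? libraries (log2 difference 3.02, adjusted p = 0.05004, just above the threshold). *wnt7ba* had 1, 10 and 3 in hand2 FLD-/- libraries, against 22, 28 and 12 in hand2 FLD+/? libraries (−2.21, adjusted p = 0.0579). *wnt7bb* had 22, 21 and 0 in hand2 FLD-/- libraries, against 37, 61 and 100 in hand2 FLD+/? libraries (−2.96, adjusted p = 0.0749). All 3 had wide intervals, the narrowest from −3.94 to −0.48 for *wnt7ba*.

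Of the 3 tested R-spondins, which amplify canonical signaling, 2 rose in the mutant (all genes 9.09%). *rspo3* (chr16:40301056-40339027) had 1156, 1135 and 1247 normalized counts in hand2 FLD-/- libraries, against 726, 730 and 760 in hand2 FLD+/? libraries, a rise of 0.67 ± 0.06 (adjusted p = 4.88e-05). In hand2 OE libraries it had 625, 621 and 712, against 915, 869 and 839 in WT libraries, lower without overlap (log2 difference −0.42 ± 0.08, adjusted p = 0.0178) but by less than 1.5-fold. *rspo2* (chr16:38453876-38553721) had 62, 68 and 84 in hand2 FLD-/- libraries, against 19, 13 and 37 in hand2 FLD+/? libraries, a rise of 1.71 ± 0.42 (adjusted p = 0.0138). Its call was lost without hand2 FLD-/- replicate 3 (adjusted p = 0.0541), and it was not called in hand2 OE (adjusted p = 0.512). *rspo1* had at most 11 normalized counts in any library of the loss-of-function experiment and did not pass (adjusted p = 0.354).

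All 13 Frizzled genes were tested in both experiments and their differences were mostly small. The largest was that of the low gene *fzd8b* in the mutant. It had 36, 100 and 59 normalized counts in hand2 FLD-/- libraries, against 22, 0 and 24 in hand2 FLD+/? libraries. The groups did not overlap, but the interval was wide and the gene was not called (log2 difference 2.87, 95% interval 0.32 to 5.41, adjusted p = 0.0879). In hand2 FLD-/- cardiomyocytes, only *fzd9b* was called. *fzd9b* (chr18:41648812-41650648) had 1049, 1060 and 1138 normalized counts in hand2 FLD-/- libraries, against 1584, 1641 and 1789 in hand2 FLD+/? libraries, and fell by 0.63 on the log2 scale (± 0.06, adjusted p = 7.62e-05). Its fold change stood close to the threshold, and it went below it without hand2 FLD+/? replicate 3 (log2 difference −0.58). A further 5 receptors passed on the adjusted p with less than 1.5-fold change, and except for *fzd7a* their values are given because of what they showed. *fzd7a* (chr9:13352308-13355071), a receptor used by both branches, had 2123, 2194 and 2223 normalized counts in hand2 FLD-/- libraries, against 2991, 3168 and 3218 in hand2 FLD+/? libraries (log2 difference −0.52 ± 0.04, adjusted p = 1.88e-05). *fzd2* and *fzd6* had log2 differences of −0.58 and −0.58, whereas *fzd7b* and *fzd8a* were higher by 0.36 and 0.50, and none of these 4 overlapped between the groups.

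In hand2 OE cardiomyocytes, *fzd7a* had 2094, 2011 and 2232 normalized counts, against 1713, 1695 and 1636 in WT cardiomyocytes (0.33 ± 0.05, adjusted p = 0.00721). *fzd2* was higher by 0.30 (adjusted p = 0.0389) and *fzd8a* differed by −0.30 (adjusted p = 0.0186), so each of these 3 receptors had the sign opposite to that in the mutant. The receptor called in hand2 OE was a different gene: *fzd5* (chr9:28232522-28234444), a Frizzled receptor known from eye development, had 192, 229 and 222 normalized counts, against 317, 336 and 346 in WT cardiomyocytes, and fell by 0.64 (± 0.13, adjusted p = 0.0247). That call was lost whichever library was left out (adjusted p 0.0502 to 0.0874). In the mutant experiment *fzd5* had 127, 130 and 126 in hand2 FLD-/- and 127, 114 and 179 in hand2 FLD+/?, which overlapped (adjusted p = 0.739).

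The levels of the *fzd7* paralogs lay closer together in the mutant, and *fzd7a* stayed the higher, unlike the *dkk1* paralogs, whose order was exchanged. The log2 ratio of *fzd7a* to *fzd7b* within a library was 0.21 to 0.279 in hand2 FLD-/- and 1.07 to 1.16 in hand2 FLD+/?, without overlap (exact permutation p = 0.1, 0.314 after adjustment). In the gain-of-function experiment it was 1.04 to 1.37 in hand2 OE and 1.14 to 1.33 in WT, and overlapped. Some Frizzled genes with short spans were dense: *fzd7a* had a mean of 0.960 normalized counts per base of its span in the loss-of-function table, rank 9 of the 21274 genes longer than 500 bp, and 0.686 in the gain-of-function table, rank 24 of 20774. *fzd9b* had 0.750, *fzd2* 0.635 and *fzd8a* 0.504 in the loss-of-function table, where the highest value of any gene was 1.52. The part of this density in their small differences was not tested.

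Of the co-receptors, *lrp5* (chr25:10640623-10769039), which pairs with Frizzled in the canonical branch, was called in the mutant. It had 612, 453 and 474 normalized counts in hand2 FLD-/- libraries, against 820, 859 and 704 in hand2 FLD+/? libraries, and fell by 0.64 on the log2 scale (± 0.12, adjusted p = 0.00432). The fold change was below 1.5 without hand2 FLD-/- replicate 2 (log2 difference −0.55) or hand2 FLD+/? replicate 2 (−0.58). In hand2 OE it had 392, 476 and 419, against 337, 386 and 334 in WT, without overlap and without passing (0.28, adjusted p = 0.217). *ror2* (chr10:5268054-5407509), a receptor tyrosine kinase of the non-canonical branch, had 978, 974 and 887 normalized counts in hand2 FLD-/- libraries, against 1053, 1036 and 943 in hand2 FLD+/? libraries (log2 difference −0.09, adjusted p = 0.335). The gain-of-function table listed *ror2* at 973, 923 and 950 in hand2 OE libraries, against 767, 776 and 841 in WT libraries. These groups did not overlap and the difference narrowly missed the threshold (0.26, adjusted p = 0.0576).

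The Axin, Dishevelled and Vangl genes had no call. By limma, all 6 tested Axin and Dishevelled genes and both Vangl genes were above an adjusted p of 0.05 in each experiment; at an unadjusted p under 0.05 there were 0 of these 8 in the mutant and 1, *dvl2*, in hand2 OE. *axin1* (chr3:43578975-43662495), a scaffold of the β-catenin destruction complex, had 1181, 1202 and 1220 normalized counts in hand2 FLD-/- libraries, against 1177, 1252 and 1194 in hand2 FLD+/? libraries (log2 difference −0.01, 95% interval −0.12 to 0.10). *axin2*, a widely used target of canonical signaling as well as an inhibitor of it, was not within the rule for named genes and is given because of that use. It had 1220, 1049 and 1056 in hand2 FLD-/- libraries, against 1001, 1004 and 1072 in hand2 FLD+/? libraries (0.11, 95% interval −0.05 to 0.27, adjusted p = 0.288). In the gain-of-function experiment *axin2* had 563, 661 and 692 in hand2 OE libraries, against 636, 624 and 478 in WT libraries (0.15, 95% interval −0.15 to 0.44, adjusted p = 0.587). The intervals for *axin2* thus left room for differences of less than 1.5-fold in either direction. *dvl2* (chr7:20260172-20295432), a Dishevelled adaptor shared by both branches, had 796, 742 and 802 in hand2 OE libraries, against 657, 700 and 706 in WT libraries (0.18, adjusted p = 0.195), and its log2 difference in the mutant was −0.08. *vangl2* (chr7:5324061-5375214), the core planar polarity protein, had 2274, 2277 and 2262 in hand2 FLD-/- libraries, against 2378, 2299 and 2438 in hand2 FLD+/? libraries (−0.06, adjusted p = 0.235), and 1254, 1361 and 1129 in hand2 OE against 1135, 1258 and 1166 in WT (0.07, adjusted p = 0.677).

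The nuclear factors of the canonical branch rose in the mutant and fell with overexpression in 2 of their 5 members, *lef1* and *tcf7l1b*. Over all genes, 9.09% rose in the mutant and 1.57% fell in hand2 OE. *lef1* (chr1:49814461-49905357), the transcription factor through which β-catenin activates many targets, had 1610, 1606 and 1716 normalized counts in hand2 FLD-/- libraries, against 808, 775 and 887 in hand2 FLD+/? libraries. It rose by 1.00 on the log2 scale (± 0.06, adjusted p = 6.70e-06). With overexpression, *lef1* had 421, 646 and 409 in hand2 OE libraries, against 953, 951 and 916 in WT libraries, and fell by 0.97 (± 0.16, adjusted p = 0.0101). The hand2 OE libraries did not overlap the WT libraries, and replicate 2 was the highest of the 3; without it *lef1* fell by 1.18 (adjusted p = 0.00177). On the deposited map *lef1*, *dkk2* and *hand2* itself (chr1:38193147-38195012) lie on the same chromosome, and differences between the mutant and sibling copies of that chromosome cannot be told apart from the deletion.

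*tcf7l1b* (chr8:52106818-52230115), formerly *tcf3b*, a repressor of Wnt targets when β-catenin is absent, had 871, 763 and 758 normalized counts in hand2 FLD-/- libraries, against 497, 539 and 528 in hand2 FLD+/? libraries, a rise of 0.61 ± 0.08 (adjusted p = 4.77e-04). The fold change went below 1.5 without hand2 FLD-/- replicate 1 (0.54) or hand2 FLD+/? replicate 1 (0.58). In hand2 OE libraries it had 334, 322 and 214, against 550, 528 and 523 in WT libraries, and fell by 0.90 (± 0.17, adjusted p = 0.0160). That call was lost without WT replicate 1, 2 or 3 (adjusted p 0.0609, 0.0554 and 0.0506). Its paralog *tcf7l1a* had log2 differences of −0.06 in hand2 FLD-/- and 0.095 in hand2 OE and was not called. The log2 ratio of *tcf7l1a* to *tcf7l1b* was 0.0836 to 0.362 in hand2 FLD-/- against 0.677 to 1.1 in hand2 FLD+/?, and 0.959 to 1.52 in hand2 OE against 0.128 to 0.181 in WT (exact permutation p = 0.1 each, 0.314 after adjustment). *tcf7* and *tcf7l2* were not called in either experiment.

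Across the 2 experiments, which shared no sample, 51 Wnt genes were tested in both, and 10 of them had an adjusted p of 0.05 or below in both. Of these 10, 9 had opposite signs: *sfrp5*, *dkk1a*, *fzd2* and *fzd7a* were lower in hand2 FLD-/- and higher in hand2 OE, and *lef1*, *tcf7l1b*, *rspo3*, *wnt5b* and *fzd8a* were higher in hand2 FLD-/- and lower in hand2 OE. The exception was *wnt11f2*, higher in both. Over all genes, 689 of 15931 passed in both and 495 of these (71.8%) had opposite signs, so that opposite signs were also the commoner case over all genes. With each library of the overexpression experiment left out in turn, 6 or 7 of the 10 still passed in both, and all 10 kept their sign. With each library of the mutant experiment left out, all 10 still passed. Over all processing alternatives, however, only *sfrp5* of the 10 always passed in hand2 OE (limma, highest adjusted p = 0.0477). The highest adjusted p there was 0.175 for *fzd7a*, 0.244 for *fzd2*, 0.187 for *fzd8a* and 0.142 for *rspo3*. It was 0.115 for *lef1* and 0.0803 for *wnt5b*. Called in both were 5 genes, with *dkk1a* and *sfrp5* down in the mutant and up in hand2 OE, *lef1* and *tcf7l1b* the reverse, and *wnt11f2* up in both. Over all genes, 367 of 15931 were called in both, 232 of them down in the mutant and up in hand2 OE, 66 the reverse, 24 up in both and 45 down in both. Over all 51 Wnt genes the log2 fold changes had a Pearson correlation of −0.13 and a Spearman correlation of 0.01, against −0.18 and −0.09 over all genes, as a description across genes.

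**Figure D2:**
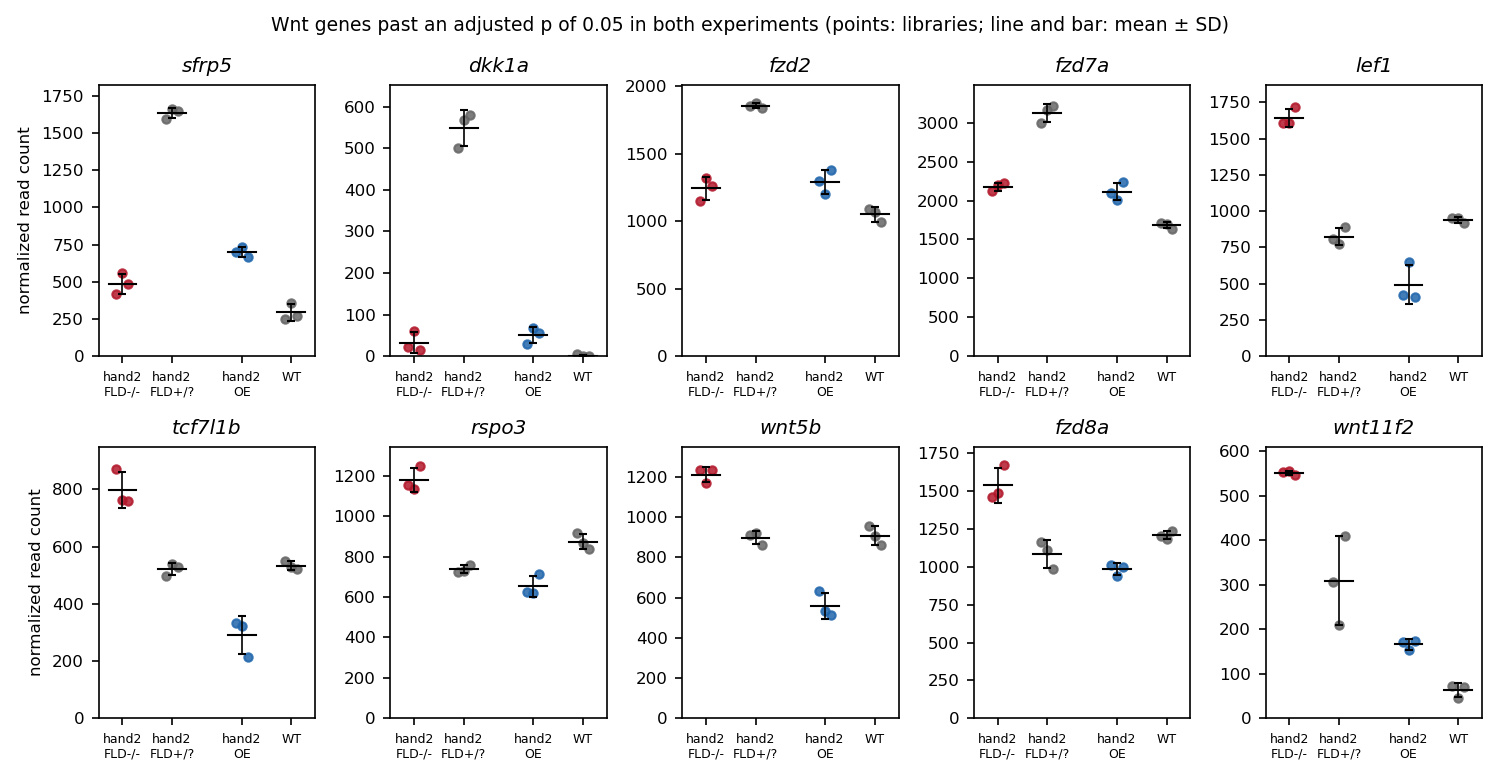
Normalized read counts (y axis, starting at 0) of the 10 Wnt genes with an adjusted p of 0.05 or below in both experiments, in hand2 FLD-/-, hand2 FLD+/?, hand2 OE and WT libraries (x axis); points are the 3 libraries of a group, and lines and bars the mean and SD. The libraries of a group and its control do not overlap for any of these genes, which follows largely from their choice by adjusted p. For *wnt11f2* the manipulated group is the higher in both experiments. The experiments were normalized separately.

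**Figure D3:**
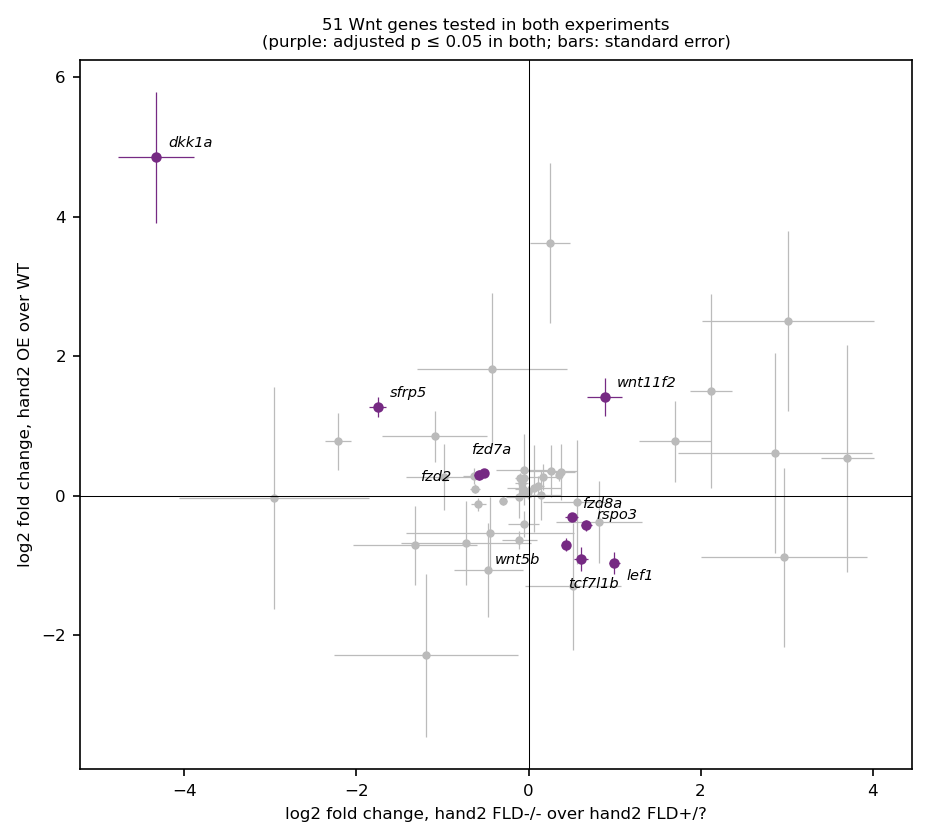
Log2 fold change in hand2 FLD-/- over hand2 FLD+/? (x axis) against that in hand2 OE over WT (y axis) for the 51 Wnt genes tested in both, with standard errors as bars; the 10 genes with an adjusted p of 0.05 or below in both are in purple. Of these, 9 lie in the upper left or lower right, and *wnt11f2* lies in the upper right.

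A list of 78 further genes of the pathway outside the naming rule was examined in the same fits. In hand2 FLD-/- cardiomyocytes, 6 of the 65 tested rose and 13 fell (29.2%, against 18.5% of all genes), and in hand2 OE cardiomyocytes 2 of 60 rose and 2 fell (6.67%, against 4.10%). Of the 5 tested genes listed under ligand secretion and release, the 3 that fell in the mutant (all genes 9.43%) encode enzymes that inactivate Wnt ligands. *notum1b*, a secreted enzyme that removes the lipid from Wnt ligands, had 78, 26 and 40 normalized counts in hand2 FLD-/- libraries, against 534, 642 and 509 in hand2 FLD+/? libraries (log2 difference −3.66, adjusted p = 6.10e-05). *notum1a* fell by 2.21 and *trabd2a* by 0.61. The genes of the secretory route itself, *wls* and *porcnl*, had log2 differences of −0.28 and 0.35, without overlap between the groups. Both passed on the adjusted p (limma, 0.00527 and 0.0397) but differed by less than 1.5-fold and were not called. Inhibitors that act on Dishevelled differed within their families: *nkd2a* and *dact1* fell by 2.19 and 1.49, whereas *nkd1* and *dact2* rose by 1.1 and 1.17. *sost* and *sostdc1a*, secreted inhibitors of Lrp5 and Lrp6, rose by 2.26 and 1.83. Of the 13 tested genes listed under planar cell polarity, 3 were called in the mutant (all genes 18.5%), all lower (all genes 9.43%). These were *celsr1b*, *scrib* and *celsr1a*, with log2 differences of −1.08, −0.73 and −0.60. *cthrc1a*, whose mouse counterpart is a secreted protein that favors the non-canonical branch, fell by 2.10, and *myca*, a common target of canonical signaling, rose by 1.85. Of the 14 tested genes listed as nuclear cofactors and common targets, 2 rose and 1 fell in the mutant (all genes 9.09% and 9.43%). The gene that fell was *apcdd1l* (log2 difference −1.17, limma, adjusted p = 5.46e-06). The other called genes of the list in the mutant were *kremen1*, *csnk1e* and *ptk7a*, lower by 1.44, 1.34 and 1.01, and *tle3b*, higher by 0.97. In hand2 OE, *wif1*, a secreted protein that binds Wnt ligands, had 336, 347 and 331 normalized counts, against 107, 157 and 103 in WT, a rise of 1.49 (adjusted p = 0.00367). *tle3a*, a Groucho-type co-repressor, rose by 0.70, and *bcl9l*, a β-catenin cofactor, and *daam1a*, a formin downstream of Dishevelled, fell by 0.76 and 0.62.

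Markers of some other cell types differed with the genotype in the same libraries. The sums of erythroid, neural, neural crest and epidermal markers overlapped between hand2 FLD-/- and hand2 FLD+/?. Paraxial mesoderm and skeletal muscle markers summed to 3004 to 3129 in hand2 FLD-/- and 3322 to 3841 in hand2 FLD+/?, with *myod1* rising and *tcf15* falling. The lower sum lay in *acta1b* and *tcf15*, with means of 1580 and 19 in hand2 FLD-/- against 1911 and 394 in hand2 FLD+/?. The median log2 difference of the tested markers of this list was 0.654, so the sum and most of its markers differed in opposite directions. Summed over 12 cardiomyocyte genes, hand2 FLD-/- libraries held 30122 to 31487 normalized counts and hand2 FLD+/? libraries 44353 to 47188, with 2 of the 12 genes called (*myh6* and *ttn.2*, both lower). Most of the difference between the sums lay in *ttn.2*, *myh7* and *myh6*. Their means were 11207, 7651 and 726 in hand2 FLD-/- against 18152, 10664 and 3755 in hand2 FLD+/?. The log2 differences of *nkx2.5*, *tnnc1a* and *myl7* were −0.02, −0.08 and −0.24. The median over the 12 was −0.26, and smaller decreases were not confined to those 3 genes with the highest share. With less than 1.5-fold change, *tnni1b*, *tnnt2a* and *myl7* passed on the adjusted p (limma, 6.24e-05, 0.00215 and 0.00413), whereas *nkx2.5* and *tnnc1a* did not. Endothelial and endocardial markers summed to 5822 to 6074 in hand2 FLD-/- and 1687 to 2010 in hand2 FLD+/?, and 7 of the 9 tested rose, *cdh5* by 2.85 on the log2 scale, while *pecam1* stayed at or below 7 in every library of that experiment and was not tested. The endocardial marker *nfatc1* had 147, 83 and 120 in hand2 FLD-/- against 282, 177 and 157 in hand2 FLD+/?, without overlap and not called (log2 difference −0.80, adjusted p = 0.0557). Midbrain-hindbrain boundary markers summed to 1826 to 1999 in hand2 FLD-/- and 446 to 534 in hand2 FLD+/?, with 2 of 7 rising, *en1b* by 6.88 and *pax2a* by 3.13. *en1b* made up most of that sum in the mutant, with 1077, 1130 and 1120 normalized counts in hand2 FLD-/- against 4, 27 and 5 in hand2 FLD+/?, whereas *en2a*, *en2b* and *pax5* had log2 differences of −2.59, −0.60 and −0.45 and were not called. These sums were higher in the same libraries in which *wnt8b*, *dkk2*, *dkk1b* and *lef1* were higher, and their part in those results was not tested.

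Mesothelial and other lateral plate markers moved as *sfrp5* and *dkk1a* did. They summed to 1807 to 2108 in hand2 FLD-/- and 5047 to 5340 in hand2 FLD+/?, with 5 of 7 falling and *tbx18* rising, and to 2889 to 3059 in hand2 OE and 1831 to 2013 in WT, with 3 of 6 rising. *jam2b*, the member with the largest difference in hand2 OE, had 76, 133 and 98 normalized counts in hand2 FLD-/- against 1125, 1180 and 1178 in hand2 FLD+/?, and 507, 587 and 482 in hand2 OE against 88, 126 and 74 in WT. Their part in the values of *sfrp5*, *dkk1a* and *wnt2bb* was not tested. The summed cardiomyocyte markers did not separate hand2 OE from WT (sums of 51534 to 57637 in hand2 OE and 54609 to 59638 in WT, with 0 of 12 called by limma and 2 at an unadjusted p under 0.05). Of those 2, *nppa* also passed on the adjusted p (limma, 0.00411). It had 1033, 1006 and 1081 in hand2 OE against 1457, 1355 and 1384 in WT. The groups did not overlap, with less than 1.5-fold change (log2 difference −0.43). *ttn.2* alone had means of 24290 in hand2 OE and 25177 in WT. The marker *cmlc1* had 1.52 normalized counts per base in the loss-of-function and 1.64 in the gain-of-function experiment. At this rounding these are the highest values of any gene over 500 bp, so *cmlc1* cannot serve as a separate sign of a limit. The part of density in the cardiomyocyte sums of either experiment was not tested. Single libraries stood apart in other lists: epidermal and neural markers summed to 3847 and 2729 in hand2 OE replicate 2, and erythroid markers to 591 in WT replicate 2. In the mutant experiment, epidermal markers summed to 4073 in hand2 FLD+/? replicate 2 and erythroid markers to 552 in hand2 FLD+/? replicate 3. Endoderm markers summed to 221 to 306 in hand2 FLD-/- and 57 to 86 in hand2 FLD+/?, with *foxa3* rising by 2.85. *foxa3* made up most of that sum in the mutant, with 230, 260 and 191 in hand2 FLD-/- against 16, 38 and 46 in hand2 FLD+/?. The other tested endoderm markers, *foxa1*, *foxa2* and *sox17*, had log2 differences of −1.62, −1.07 and 1.08 and were not called. Of the neural markers *sox2* and *sox1a* rose and *elavl3* fell. Without hand2 OE replicate 2, *sfrp5* still rose (1.23, adjusted p = 0.0158).

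**Figure D4:**
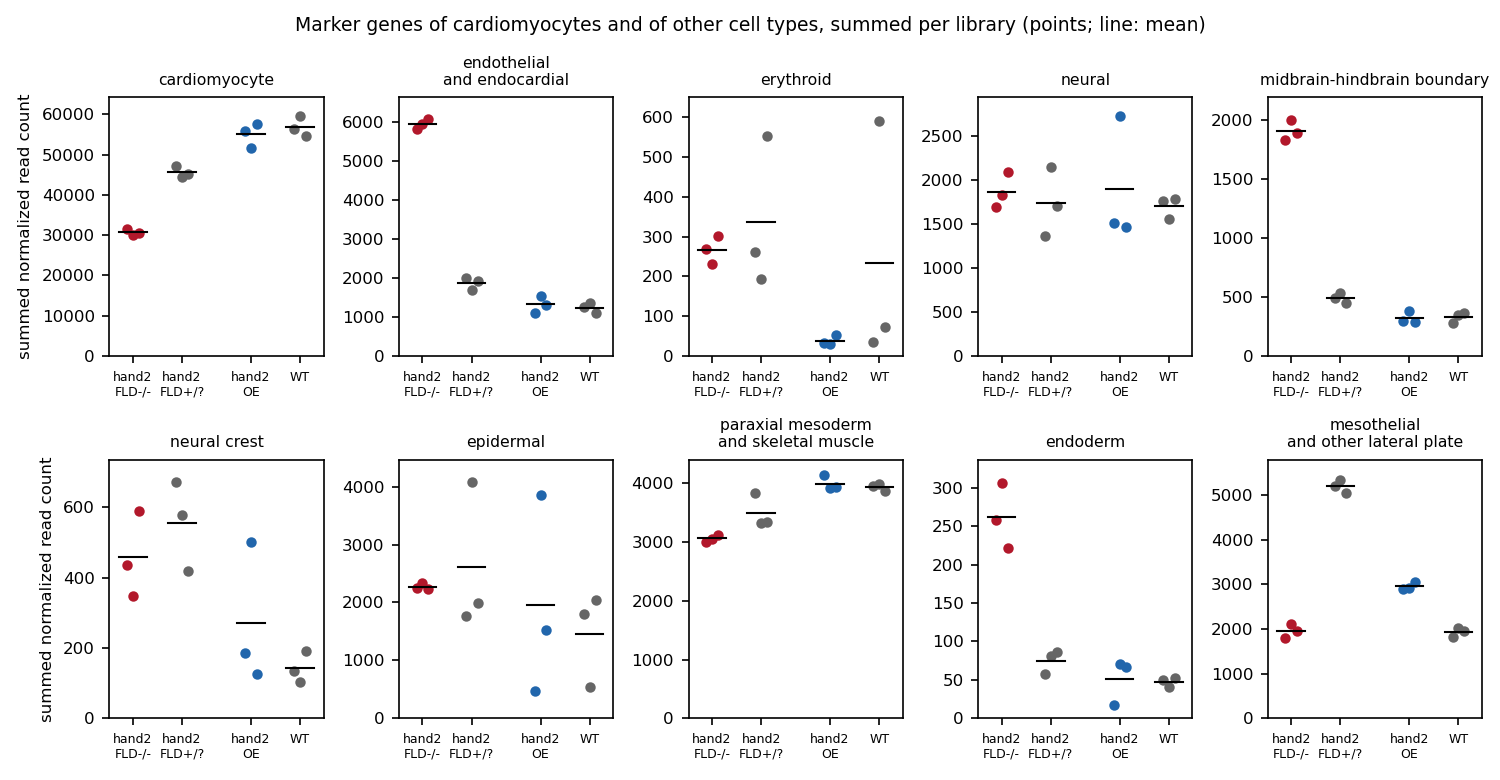
Normalized read counts summed over the markers of cardiomyocytes and of 9 other cell types (y axes, starting at 0) in hand2 FLD-/-, hand2 FLD+/?, hand2 OE and WT libraries (x axis); points are the 3 libraries of a group and lines their mean. Endothelial sums are 5822 to 6074 in hand2 FLD-/- and 1687 to 2010 in hand2 FLD+/?, and mesothelial sums are lower in hand2 FLD-/- and higher in hand2 OE than in their controls.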

How the data were processed

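Bulk RNA sequencing of sorted zebrafish cardiomyocytes was deposited as 2 tables of normalized read counts per gene, rounded by the authors to whole numbers (treated here as a score, since they are not raw counts). The authors prepared the libraries with the SMART-Seq HT kit, trimmed reads with Trimmomatic 0.39, aligned them to danRer11 with STAR 2.7.10a, counted exonic reads per gene with featureCounts 2.0.2 without reads mapping to several places or genes, and normalized them with DESeq2 1.30.1; use of strand was not given in the sources used here. Totals were 6728865 to 6965321 normalized counts per library in the loss-of-function table and 5322231 to 5425823 in the gain-of-function table. These totals follow normalization and are not sequencing depths, which are unknown, so no counting interval is given. Within groups, libraries correlated at 0.944 or more and 0.911 or more.

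Each experiment was fitted alone with limma 3.58.1 (trend) in R 4.3.3 on log2(value + 1), for genes with a mean of at least 5, with Benjamini-Hochberg adjustment over all tested genes. Fold changes are on this scale and, for low genes, depend on the added value. The scripts were tested on simulated data. Whole reads could not be recovered from the rounded values, and the planned count model was not run. Some small whole numbers were absent from 5 of 12 libraries, which was taken as a trace of the scaling. Single ratios were compared by exact two-sided permutation tests, whose smallest p is 0.1. p-values measure the spread between these libraries.

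The members, roles and lists were chosen with earlier results of these data known. Per-library values are given for called members without overlap, members called in both experiments, the member of each role with the highest mean, and members called in 1 experiment and past the adjusted p in the other; pathway genes are the called ones, up to the 8 with the largest change and a mean of at least 20. Other names (*dkk3b*, *sfrp1a*, *sfrp2*, *wnt2ba*, *wnt10b*, *wnt7ba*, *wnt7bb*, *rspo1*, *axin2* and Frizzled genes besides *fzd5*, *fzd7a* and *fzd9b*) as well as the pathway genes *nkd1*, *dact2*, *trabd2a*, *wls* and *porcnl* were chosen after their values were seen. The pathway genes *apcdd1l*, *celsr1a*, *celsr1b*, *scrib*, *kremen1*, *csnk1e*, *ptk7a* and *tle3b* were also chosen in that way. Alternatives were the added value, the filter, 2 rescalings, no trend, other fold thresholds, a replicate block and each library left out. The main fit was planned with 2 groups and no pairing. Correlations between same-numbered libraries were low, at 0.0155 to 0.0340 in the mutant and −0.0976 to −0.0205 in the overexpression experiment.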

Additional observations from a re-analysis of the deposited data

How the results depend on the processing

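Depth was unknown, and members with a mean below 5 normalized counts could not be judged. Of the 22 calls of single members, 8 held under every alternative: *wnt8b*, *dkk1a*, *wnt2bb*, *sfrp5*, *wnt2*, *dkk1b* and *dkk2* in hand2 FLD-/-, and *sfrp5* in hand2 OE. With each library left out in turn, 10 of 15 calls in hand2 FLD-/- and 3 of 7 in hand2 OE held throughout. The number of Wnt genes that rose in hand2 FLD-/- was 9, and 5 at a fold change of at least 2; without 1 library it was 7 to 9. The number that fell was 6, and 10 with no fold change threshold; without 1 library it was 6 or 7. The number that rose in hand2 OE was 3, and 1 without the trend in limma and 5 with no fold change threshold; without 1 library it was 1 to 4, the lowest when replicate 2 or 3 of hand2 OE was left out. The number that fell in hand2 OE was 4, and 0 without the trend and 0 at a fold change of at least 2; without 1 library it was 2 or 3, with 2 without WT replicate 1, 2 or 3. Without the trend, *lef1*, *tcf7l1b*, *wnt5b*, *dkk1a*, *wnt11f2* and *fzd5* were not called in hand2 OE (adjusted p 0.115, 0.123, 0.0803, 0.0677, 0.0677 and 0.0806), nor *wnt11f2* and *wnt16* in hand2 FLD-/- (0.0647 and 0.122). The cause was not tested.

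Rescaling to equal totals took *fzd9b* below the fold threshold in hand2 FLD-/- (log2 difference −0.58), and rescaling by trimmed means of M values took *fzd2* and *fzd6* past it (−0.59 and −0.59). Members that were not called changed sign without 1 library: *fzd5* in hand2 FLD-/- ranged between −0.24 and 0.085 (positive only without hand2 FLD+/? replicate 3), *wnt8b* in hand2 OE between −0.54 (without WT replicate 2) and 1.91, with −0.43 without hand2 OE replicate 1, and *wnt16* in hand2 OE between −2.17 and 0.26 (without hand2 OE replicate 2). With the replicate number as a block, 9 Wnt genes rose and 6 fell in hand2 FLD-/-, and 2 rose and 3 fell in hand2 OE, where *dkk1a* (adjusted p = 0.0586) and *fzd5* (0.0552) were no longer called. Every mutant library correlated best with the sibling library of its own number, as a hint from the data only, and no hand2 OE library did so with WT.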
